A study of Oryza sativa Japonica Group with 6 samples.

Results

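In young panicles of rice, 51 of the 42189 listed genes were line-separated outside a block of chromosome 1, which means that the lowest library of one line was at least 2 times the highest library of the other. Of these, 44 were higher in NIL-*hfr131* and 7 were lower. The comparison was made on TPM + 1, where TPM is the abundance of a gene's transcripts, scaled for gene length and to the same total in each library. The block that was left out holds 726 listed genes of chromosome 1, the last of them at locus number 52030 and so just below *OsBRI1* at 52050, so the 51 genes come from the remaining 41463. They make up 0.106% of those genes for the higher direction and 0.0169% for the lower. The genes were chosen by the difference between the lines in these same 6 libraries, so that difference is described below and was not tested.

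The first line was NIL-*hfr131*, labelled as the mutant with genotype hfr131, and the second was 187R, labelled as wild type with genotype HFR131, with 3 biological replicates of each. 187R is an *indica* restorer line and was the recipient parent to which offspring of a cross with the wild rice *Oryza longistaminata* were repeatedly backcrossed. NIL-*hfr131* is 1 near-isogenic line from that work, and the panicles of both lines were taken before heading, from field-grown plants under natural conditions. The organism label of all libraries is *japonica* rice, although the methods call 187R *indica*.

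A near-isogenic line carries a stretch of donor chromosome in the genome of its recurrent parent. Genes inside the stretch have donor alleles, and a donor allele can differ from that of the recipient in its promoter, in its copy number or in being present at all. Genes elsewhere have, in principle, the same alleles in both lines, but repeated backcrossing can leave small unnoticed donor segments. A gene on any chromosome can also respond to any gene of the introgressed stretch. The gene to which the study traced the traits of NIL-*hfr131* is *OsBRI1*, the receptor kinase through which rice cells perceive brassinosteroids. These are steroid hormones that promote cell elongation in stems and grains. Plants with a weakened receptor are dwarf, with erect leaves and small grains. Rice gene identifiers of the form used here name the chromosome and then a locus number that rises along it, so neighbours on a chromosome have close numbers. The files pair no identifier with a gene name or product, and 0 of the 51 were found in the RefSeq gene table of rice, so the genes are given by identifier and position in that order. No function is given for them.

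The values summed to 1000000 TPM in every library, and the sequencing depth behind them, which limits the precision of weakly expressed genes, is unknown. NIL-*hfr131* replicate 3 lay apart from the rest, with Pearson correlations across genes of 0.916 to 0.937 with the other libraries on the log2(TPM + 1) scale, whereas those 5 had 0.982 to 0.991 with one another. *OsBRI1* (LOC_Os01g52050) was at 68.7, 71.5 and 117 TPM in NIL-*hfr131* and at 63.5, 58.7 and 66.7 TPM in 187R. *OsARF17* (LOC_Os06g46410), an auxin response factor, was at 47.6, 52.2 and 152 TPM in NIL-*hfr131* and at 57.0, 36.7 and 46.1 TPM in 187R. Neither gene was line-separated. Of the 14 height, grain and hormone genes that the study listed from these libraries, 0 were among the 51, against 0.123% of all genes outside the block, and *OsPIN8* (LOC_Os01g51780) could not be, since it lies inside the block. The widest gap of that list was in *D11* (LOC_Os04g39430), a brassinosteroid synthesis gene, whose lowest NIL-*hfr131* library was 1.78 times the highest 187R library. The panicle label was not checked against marker genes, because no table here pairs such markers with these identifiers.

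**Figure D1:**
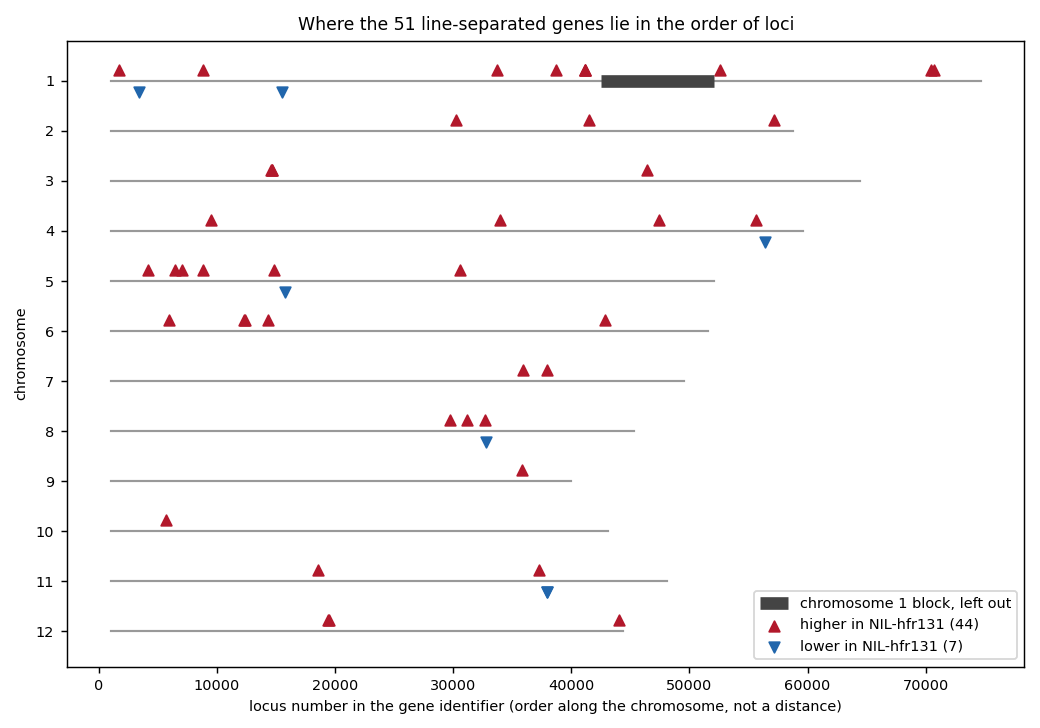
Position of the 51 line-separated genes by chromosome (rows) and locus number (horizontal axis). Red triangles above a line are the 44 genes higher in NIL-*hfr131*, blue triangles below it are the 7 lower genes, and the dark bar is the chromosome 1 block that was left out; the genes lie on all 12 chromosomes, with 12 of them on chromosome 1.

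The 44 higher genes spanned a wide range of levels. Their mean in NIL-*hfr131* ran from 1.58 to 1321 TPM with a median of 13.1 TPM, and their mean in 187R from 0 to 454 TPM with a median of 2.40 TPM. In 187R, 15 of the 44 had a mean under 1 TPM, 20 were between 1 and 10 TPM, and 9 were at 10 TPM or more. The separation, the lowest NIL-*hfr131* library over the highest 187R library on TPM + 1, was 2.03 to 23.6 times with a median of 2.44. It was under 3 in 29 genes and at least 5 in 7. In all, 34 of the 51 genes had a mean of at least 1 TPM in both lines. The others passed through the line in which they were high.

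On TPM + 1, the widest separation of a higher gene was on chromosome 10, in LOC_Os10g05720. It was measured at 237, 213 and 213 TPM in NIL-*hfr131* and at 5.94, 4.76 and 8.09 TPM in 187R. The ratio of the means was 35.3, and the log2 difference on the TPM + 1 scale was 4.96 with a standard error of 0.20. All 3 libraries of NIL-*hfr131*, replicate 3 included, lay close together in this gene. With 0.1 in place of 1 added to TPM its log2 difference was 5.15, below those of LOC_Os01g52594 (6.52), LOC_Os04g33930 (6.36), LOC_Os01g70440 (6.29) and LOC_Os06g42860 (6.23), so its rank depends on the value added. It was the only one of the 51 on its chromosome.

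LOC_Os06g42860 on chromosome 6 was at 15.2, 16.5 and 19.9 TPM in NIL-*hfr131* and at 0.0564, 0.105 and 0.276 TPM in 187R, a separation of 12.7 times. LOC_Os01g08800 on chromosome 1 was at 13.5, 10.8 and 14.7 TPM in NIL-*hfr131* and at 0.146, 0.288 and 0.435 TPM in 187R, a separation of 8.23 times. Both genes were thus near the lower end of the measured values in 187R and clearly measured in every NIL-*hfr131* library. LOC_Os01g70440, near the far end of chromosome 1, shared this pattern with more spread, at 21.4, 32.6 and 12.9 TPM in NIL-*hfr131* and at 0.315, 0.111 and 0.117 TPM in 187R. LOC_Os01g70660, 220 locus numbers further on, was at 9.97, 10.2 and 11.6 TPM in NIL-*hfr131* and at 1.90, 1.39 and 1.40 TPM in 187R. The order of the NIL-*hfr131* libraries differed between these 2 neighbours, with replicate 3 the lowest in LOC_Os01g70440 and the highest in LOC_Os01g70660. Between them, 12 other genes with a mean of at least 1 TPM had a median log2 difference of -0.14.

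Among the higher genes, 3 were listed at 0 in every 187R library. LOC_Os01g52594 was at 10.5, 8.36 and 8.44 TPM in NIL-*hfr131*, LOC_Os04g33930 at 10.7, 9.66 and 5.22 TPM, and LOC_Os08g32720 at 3.04, 2.70 and 1.77 TPM. LOC_Os01g52594 lies 544 locus numbers above *OsBRI1*, on the far side of that gene from the block. LOC_Os04g33930 had no other line-separated gene within 1000 locus numbers. No ratio of means is given for the 3 genes, because a 0 in TPM does not say how few transcripts a library could have shown. For the same reason, the size of their log2 differences depends on the value added to TPM. LOC_Os04g55660 was close to this pattern, at 1.18, 1.81 and 1.74 TPM in NIL-*hfr131* and at 0.0667, 0 and 0.0547 TPM in 187R. It was the only one of the 51 with a mean under 1 TPM over the 6 libraries.

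At the other end of the range, a few genes were abundant in both lines. LOC_Os11g37280 on chromosome 11 was at 1380.4, 1372 and 1211 TPM in NIL-*hfr131* and at 414, 440 and 509 TPM in 187R. By its mean level it was above 99.7% of the genes that were detected at all. Its ratio of means was 2.91, and the log2 difference was 1.54 with a standard error of 0.11. Among genes of middle level, LOC_Os09g35800, the only one of the 51 on chromosome 9, was at 51.6, 48.6 and 54.2 TPM in NIL-*hfr131* and at 14.03, 14.1 and 15.1 TPM in 187R, so the spread within each line was small beside the gap of 3.09 times.

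**Figure D2:**
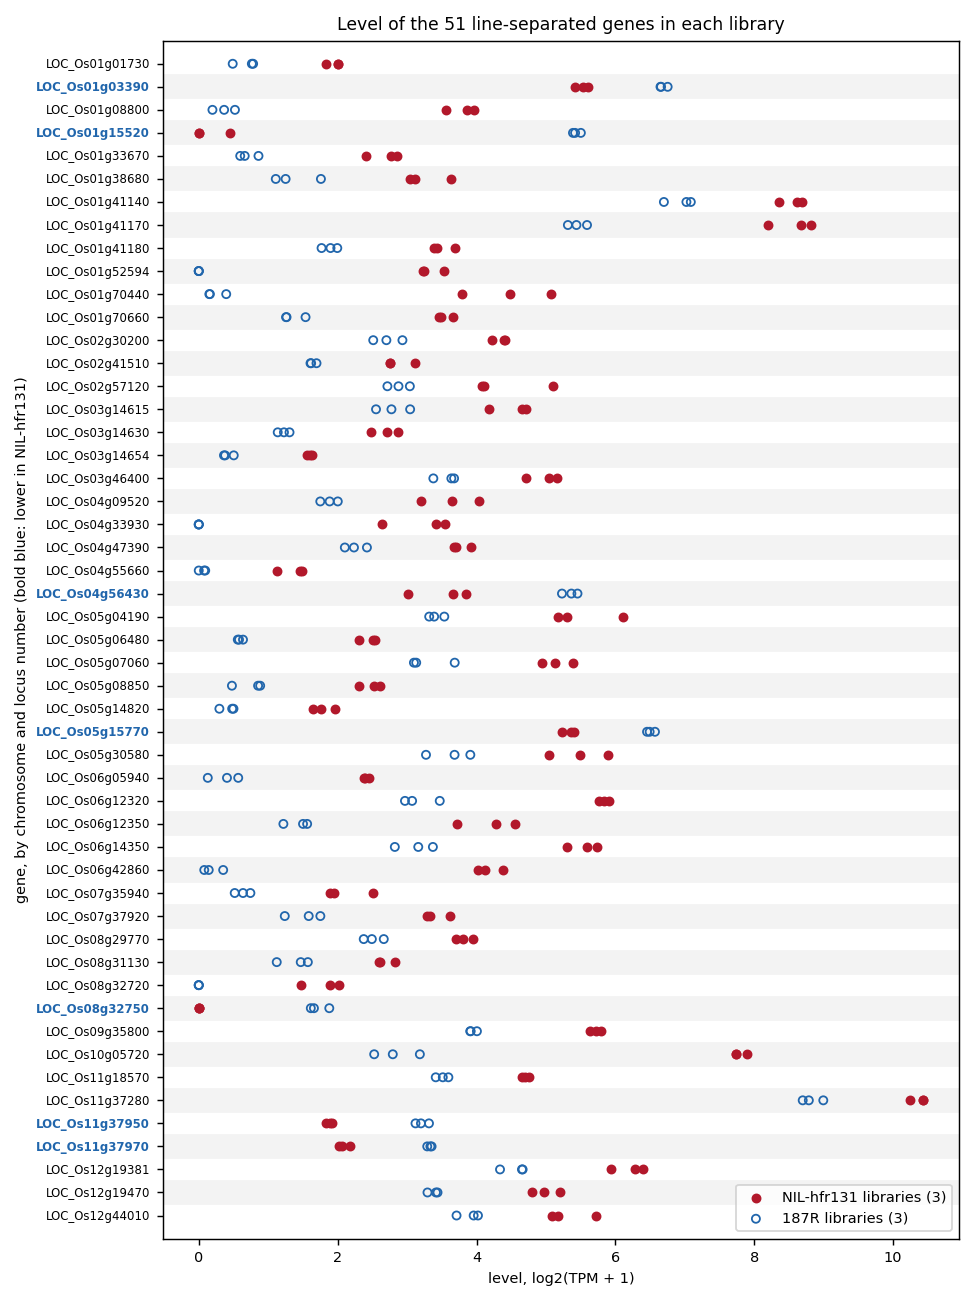
Level of each of the 51 genes in each library, as log2(TPM + 1) on the horizontal axis, with genes ordered by chromosome and locus number. Filled red points are the 3 NIL-*hfr131* libraries and open blue points the 3 187R libraries; the 7 genes with bold blue names are lower in NIL-*hfr131*, and LOC_Os01g15520 and LOC_Os08g32750 among them sit at or near 0 in NIL-*hfr131*.

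The 7 lower genes were of 2 kinds, those at or near 0 in NIL-*hfr131* and those measured in both lines. The widest gap of all 51 genes was in LOC_Os01g15520 on chromosome 1, which was listed at 0.361, 0 and 0 TPM in NIL-*hfr131* and was at 40.9, 41.8 and 44.3 TPM in 187R, a separation of 30.8 times. LOC_Os08g32750 on chromosome 8 had a listed value of 0 in all of NIL-*hfr131* and was at 2.16, 2.68 and 2.06 TPM in 187R. The other 5 remained measurable in both lines. LOC_Os04g56430 was at 13.4, 11.7 and 7.09 TPM in NIL-*hfr131* and at 36.5, 42.8 and 40.2 TPM in 187R, a log2 difference of -1.84 with a standard error of 0.26, and NIL-*hfr131* replicate 3 was its lowest library.

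LOC_Os01g03390 and LOC_Os05g15770 had nearly the same pattern on different chromosomes. LOC_Os01g03390 was at 45.3, 47.8 and 41.9 TPM in NIL-*hfr131* and at 99.4, 107 and 99.9 TPM in 187R, a ratio of means of 0.441. LOC_Os05g15770 was at 36.6, 40.0 and 41.5 TPM in NIL-*hfr131* and at 86.8, 94.0 and 89.1 TPM in 187R, a ratio of 0.438. In both genes the libraries of each line lay close together, with SDs of 2.96 and 2.51 TPM in NIL-*hfr131* and at 4.13 and 3.68 TPM in 187R. The remaining lower genes, LOC_Os11g37950 and LOC_Os11g37970, are near neighbours on chromosome 11 and are described with the runs below.

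By chromosome, the counts were uneven. Chromosome 1 outside the block had 12 line-separated genes, 10 higher and 2 lower, which is 0.450% of its 2664 genes with a mean of at least 1 TPM. Chromosomes 11 and 5 came next by share, with 4 genes (0.382%) and 7 genes (0.381%). Chromosome 8 also had 4 genes (0.289%) and chromosome 6 had 5 (0.286%). Chromosomes 9 and 10 had 1 gene each, and chromosomes 2, 3 and 7 had shares of 0.118% to 0.137%. Over all chromosomes outside the block the share was 0.237%. Lower genes were found on chromosomes 1, 4, 5, 8 and 11. All line-separated genes of the other chromosomes were higher in NIL-*hfr131*. The counts per chromosome are small, and no test was made of them.

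Several of the 51 genes were close neighbours. In 8 cases a line-separated gene lay within 100 locus numbers of the next, which involved 14 genes. In 7 of the 8 cases both genes had the same direction. Since 44 of the 51 were higher, most pairs of them share a direction wherever they lie, and no test was made of this count. With a limit of 1000 locus numbers, 9 genes formed 3 groups of at least 3 members, on chromosomes 1, 3 and 11. A further 14 genes formed 7 pairs, and 28 genes had no other member within that distance. The pairs were looked at after the groups had been seen.

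The run on chromosome 1 consisted of LOC_Os01g41140, LOC_Os01g41170 and LOC_Os01g41180, and ended 1320 locus numbers below the block. LOC_Os01g41170 was at 449.8, 407 and 292 TPM in NIL-*hfr131* and at 42.4, 38.8 and 47.2 TPM in 187R, a ratio of means of 8.95. LOC_Os01g41140 was at 391, 411 and 328 TPM in NIL-*hfr131* and at 135, 103 and 129 TPM in 187R, a ratio of 3.08. LOC_Os01g41180 was at 11.8, 9.78 and 9.50 TPM in NIL-*hfr131* and at 2.41, 2.99 and 2.73 TPM in 187R, a ratio of 3.83. NIL-*hfr131* replicate 3 was the lowest of its line in all 3 genes and was still above every 187R library. Of the 5 loci listed in this run, only these 3 had a mean of at least 1 TPM. The others, LOC_Os01g41145 and LOC_Os01g41160, were at 0.186 TPM or less in every library.

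The run on chromosome 3 was of lower level. LOC_Os03g14615 was at 17.1, 25.2 and 24.1 TPM in NIL-*hfr131* and at 7.25, 4.87 and 5.84 TPM in 187R. LOC_Os03g14630 was at 6.30, 5.54 and 4.57 TPM in NIL-*hfr131* and at 1.199, 1.47 and 1.34 TPM in 187R. LOC_Os03g14654 was at 1.94, 2.08 and 2.04 TPM in NIL-*hfr131* and at 0.301, 0.418 and 0.286 TPM in 187R. All 3 were thus higher in NIL-*hfr131*, with ratios of means of 3.69, 4.09 and 6.03. The fourth locus listed between them, LOC_Os03g14642, was at 0.231 TPM or less in every library. Reads that match more than 1 of such close neighbours could have been shared among them in the authors' processing, and how they were handled is not given in the sources used here.

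Chromosome 12 had a pair of the same kind. LOC_Os12g19381 was at 83.5, 76.5 and 60.5 TPM in NIL-*hfr131* and at 19.2, 24.3 and 24.2 TPM in 187R, and LOC_Os12g19470 was at 35.7, 30.2 and 26.9 TPM in NIL-*hfr131* and at 9.84, 8.81 and 9.67 TPM in 187R. The ratios of the means, 3.25 and 3.28, were alike, and the NIL-*hfr131* libraries had the same order in both genes. The 3 loci listed between them were at 0.566 TPM or less in every library. The runs on chromosomes 1, 3 and 12 are bounded by line-separated genes by construction, and only LOC_Os01g41170 and LOC_Os03g14630 lie between such ends with a mean of at least 1 TPM. Of the nearest loci of that level outside these runs, LOC_Os01g41190, LOC_Os03g14610, LOC_Os03g14669, LOC_Os12g19370 and LOC_Os12g19530 overlapped between the lines, with log2 differences of -0.09 to 0.66. LOC_Os01g41120 was higher in NIL-*hfr131* without overlap, with a separation of 1.12 times.

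On chromosome 6 an expressed locus lay between the ends of the pair. LOC_Os06g12320 was at 58.9, 56.3 and 53.4 TPM in NIL-*hfr131* and at 6.83, 7.41 and 10.1 TPM in 187R, a ratio of means of 6.93. LOC_Os06g12350 was at 22.6, 18.3 and 12.2 TPM in NIL-*hfr131* and at 1.33, 1.83 and 1.95 TPM in 187R, a ratio of 10.4. LOC_Os06g12330, which lies between them, was at 52.1, 41.8 and 32.8 TPM in NIL-*hfr131* and at 36.6, 41.6 and 41.3 TPM in 187R. Its lines overlapped, with a log2 difference of 0.061, so a gene between 2 line-separated neighbours did not share their difference. Its mean was near that of LOC_Os06g12320 in NIL-*hfr131* (42.2 and 56.2 TPM) but not in 187R (39.8 and 8.11 TPM). Outside the pair, the nearest locus below, LOC_Os06g12310, was higher in NIL-*hfr131* without overlap. Its log2 difference was 0.73 and its separation 1.43 times. The nearest expressed locus above, LOC_Os06g12390, overlapped between the lines, with a log2 difference of 0.24.

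On chromosome 8 the close neighbours went in opposite directions. LOC_Os08g32720 was listed at 0 in every 187R library and was present in NIL-*hfr131*, whereas LOC_Os08g32750, 30 locus numbers above it, had a listed value of 0 in all NIL-*hfr131* libraries and was present in 187R. The locus listed between them, LOC_Os08g32740, was at 0 in all 6 libraries. The next locus below, LOC_Os08g32710, was at 2.02, 1.19 and 0.517 TPM in NIL-*hfr131* and at 4.83, 13.5 and 10.2 TPM in 187R. Its lines did not overlap either, and with a separation of 1.93 times it was just short of the limit.

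The group on chromosome 11 also held both directions. LOC_Os11g37950 was at 2.71, 2.79 and 2.57 TPM in NIL-*hfr131* and at 8.19, 8.95 and 7.70 TPM in 187R. LOC_Os11g37970 was at 3.52, 3.16 and 3.03 TPM in NIL-*hfr131* and at 9.09, 9.22 and 8.78 TPM in 187R. These 2 lower genes had similar levels and similar log2 differences, -1.33 and -1.24, and the weakly expressed LOC_Os11g37960 between them overlapped between the lines. The abundant LOC_Os11g37280, which was higher in NIL-*hfr131*, lies 670 locus numbers below them. Of the 17 other genes in this stretch with a mean of at least 1 TPM, 3 (17.6%) were higher without overlap and 0 were lower, and their median log2 difference was 0.13. Over all genes of that level outside the block, 8.43% were higher and 9.94% lower without overlap.

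**Figure D3:**
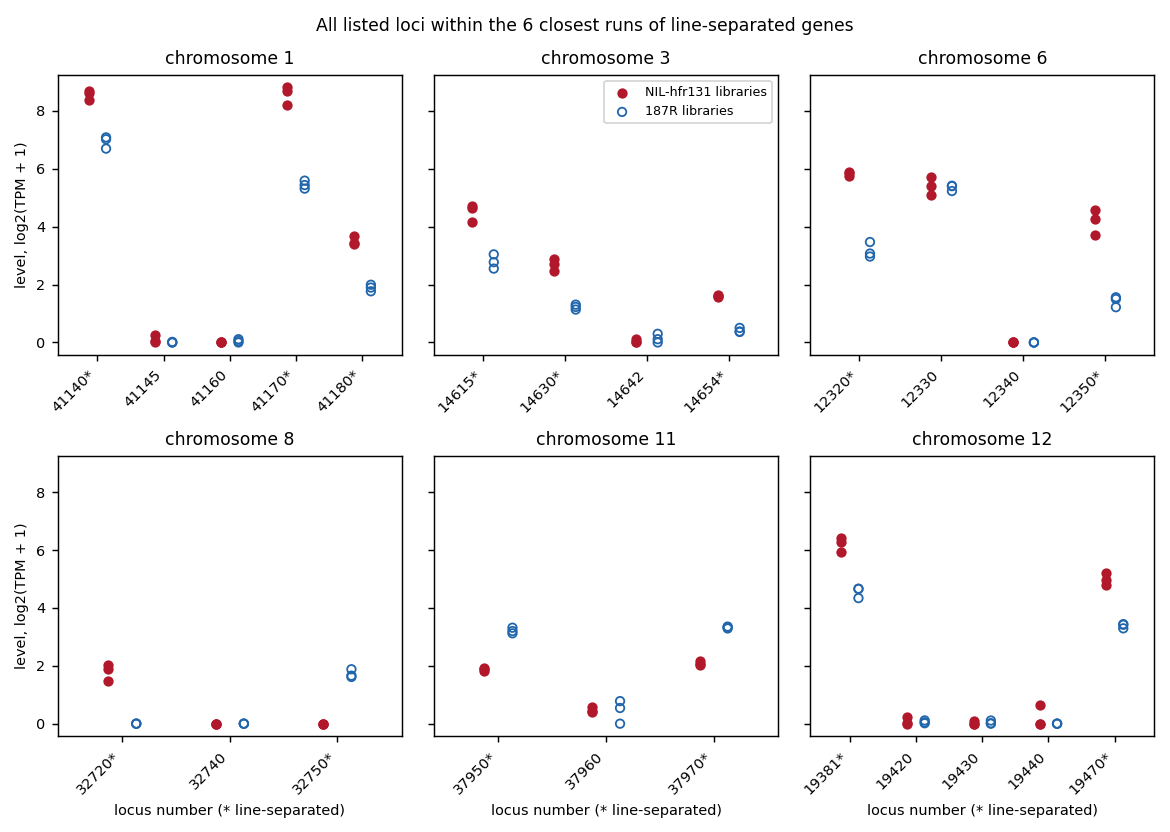
Level as log2(TPM + 1) of every listed locus in the 6 closest runs, with filled red points for the NIL-*hfr131* libraries, open blue points to their right for the 187R libraries, and an asterisk on line-separated loci. On chromosomes 1, 3 and 12 the loci between are near 0 in both lines, on chromosome 6 locus 12330 is expressed alike in both, and on chromosome 8 the 2 marked loci are each at 0 in a different line.

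With a limit of 2500 locus numbers, 21 of the 51 genes fell into 6 groups, which added looser clusters on chromosomes 5, 6 and 8 and LOC_Os01g38680 to the run on chromosome 1. On chromosome 5, LOC_Os05g04190, LOC_Os05g06480, LOC_Os05g07060 and LOC_Os05g08850 lay within 4660 locus numbers, and all 4 were higher in NIL-*hfr131*. LOC_Os05g04190 was at 35.0, 38.6 and 68.3 TPM in NIL-*hfr131* and at 8.98, 9.48 and 10.6 TPM in 187R. LOC_Os05g07060 was at 29.7, 34.1 and 40.7 TPM in NIL-*hfr131* and at 11.9, 7.57 and 7.76 TPM in 187R. Replicate 3 was the highest NIL-*hfr131* library in both. LOC_Os05g06480 and LOC_Os05g08850 were weaker, with means of 4.49 ± 0.488 and 4.59 ± 0.611 TPM in NIL-*hfr131* and 0.509 ± 0.0413 and 0.682 ± 0.251 TPM in 187R (SD, n = 3). The stretch also held 214 other genes with a mean of at least 1 TPM, of which 12 (5.61%) were higher and 19 (8.88%) lower without overlap, against 8.43% and 9.94% over all such genes outside the block. Their median log2 difference was 0.073, against 0.051 over the genes outside the block that were not line-separated.

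On chromosome 6, LOC_Os06g14350 joined the close pair, at 38.5, 47.2 and 52.2 TPM in NIL-*hfr131* and at 7.94, 6.08 and 9.35 TPM in 187R, a ratio of means of 5.90. Among the 80 other genes of that stretch, 8 were higher and 8 lower without overlap, which is 10% in each direction against the same 8.43% and 9.94%. On chromosome 8, LOC_Os08g29770 at 14.5, 13.02 and 12.1 TPM in NIL-*hfr131* and at 5.34, 4.19 and 4.63 TPM in 187R, and LOC_Os08g31130 at 5.13, 5.02 and 6.10 TPM in NIL-*hfr131* and at 1.77, 1.18 and 1.97 TPM in 187R, lay below the pair of opposite direction. There, 9 of 88 other genes were higher and 9 lower without overlap, or 10.2% in each direction. These shares were close to the background or, for higher genes on chromosome 5, below it, and no test was made of them.

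A test is meaningful only for genes that the rule did not choose. In a linear model (limma) of log2(TPM + 1) over the 21531 genes with a mean of at least 1 TPM, 66 genes (0.307%) passed an adjusted *P* of 0.05, with 54 higher (0.251%) and 12 lower (0.0557%). The count of 66 became 379 without NIL-*hfr131* replicate 3 and was 13 to 28 when any other library was left out. Of the 66, 45 were among the 51 chosen on this same difference, for which the model is no independent test, and 12 lay in the block. The other 9 were neither. Of these 9, 1 lay in the loose cluster on chromosome 6, among 80 other genes, and 1 in that on chromosome 5, among 214. In the clusters on chromosomes 8, 1 and 11, which held 88, 78 and 17 other genes, 0 were called. Over all genes of this level outside the block that were not line-separated, the 9 were among 21032. No test was made of these shares. LOC_Os06g12500, 150 locus numbers above LOC_Os06g12350, was at 50.2, 53.9 and 56.3 TPM in NIL-*hfr131* and at 21.2, 25.3 and 23.7 TPM in 187R. Its log2 difference was 1.16 (standard error 0.12; adjusted p = 0.0169, limma), and the adjusted *P* was 0.00267 to 0.169 over the alternatives. LOC_Os05g04500 was at 73.5, 72.5 and 67.3 TPM in NIL-*hfr131* and at 37.6, 39.8 and 38.9 TPM in 187R, a log2 difference of 0.86 (standard error 0.10; adjusted p = 0.0310, limma, with 0.00205 to 0.278 over the alternatives). Neither gene passed with the replicate number as a block (limma, adjusted p = 0.120 for LOC_Os06g12500 and 0.278 for LOC_Os05g04500), nor when any library other than NIL-*hfr131* replicate 3 was left out. Without that replicate the adjusted *P* was lowest in both genes. Under median-of-ratios factors and quantile normalization LOC_Os05g04500 did not pass (limma, adjusted p = 0.101 and 0.119), whereas LOC_Os06g12500 did. Both were higher in every NIL-*hfr131* library. LOC_Os06g12500 missed the limit of the rule narrowly, with a separation of 1.95 times.

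For a wider view of the surroundings, the nearest 5 genes on each side of each line-separated gene with a mean of at least 1 TPM were taken, which gave 431 genes after those in the block and the 51 themselves were left out. Of these, 47 (10.9%) were higher and 47 (10.9%) were lower in NIL-*hfr131* without overlap. Among the 20601 remaining genes of this mean outside the block, 8.19% were higher and 9.91% lower without overlap. None of the 431 had an adjusted *P* under 0.05 (limma), and 39 (9.05%) had an unadjusted *P* under 0.05, against 1633 (7.93%) of the 20601 remaining genes. The median log2 difference of the flanking genes was 0.082, against 0.051 in the remaining ones. The shares without overlap were thus somewhat larger in the flanking genes in both directions, more so for higher genes, and no test was made of these differences.

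The stretches beside the block were looked at in the same way. In the 5000 locus numbers below it, which hold the run of 3 genes described above, 4 genes were line-separated, all higher, and of 174 other genes with a mean of at least 1 TPM, 27 (15.5%) were higher and 18 (10.3%) lower without overlap, against 8.43% and 9.94% over all genes outside the block. In the 5000 locus numbers from *OsBRI1* upward, LOC_Os01g52594 was the only line-separated gene, and of 297 other genes, 23 (7.74%) were higher and 32 (10.8%) lower without overlap. No test was made of these shares. Outside the block, 0.123% of the listed genes were line-separated in either direction, against 14 of 726 (1.93%) inside it, where 10 were higher (1.38%) and 4 lower (0.551%). Among genes with a mean of at least 1 TPM these shares were 0.237% outside the block and 2.9% inside it. The limits of the block were set with earlier results of these data known, so the larger share inside it is only described. No test was made of this difference. The donor fragment of NIL-*hfr131* lies, by the methods, in the long arm of this chromosome, and where it ends in locus numbers was not determined here.

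The remaining higher genes stood alone or in loose pairs, and most were of low or middle level. On chromosome 1, LOC_Os01g01730, LOC_Os01g33670 and LOC_Os01g38680 had ratios of means of 4.70, 8.56 and 5.33, with 2.86 ± 0.261, 5.45 ± 1.01 and 8.75 ± 2.27 TPM in NIL-*hfr131* and 0.608 ± 0.177, 0.637 ± 0.158 and 1.64 ± 0.654 TPM in 187R (SD, n = 3). LOC_Os06g05940 had a ratio of 14.3, at 4.24, 4.48 and 4.20 TPM in NIL-*hfr131* and at 0.0943, 0.325 and 0.483 TPM in 187R. LOC_Os05g14820 was at 2.47 ± 0.390 TPM in NIL-*hfr131* and at 0.346 ± 0.102 TPM in 187R, and it lay 950 locus numbers below the lower gene LOC_Os05g15770. These genes had low levels in 187R, where adding 1 TPM makes the log2 difference smaller than the ratio would give.

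On chromosome 7, LOC_Os07g35940 was at 3.44 ± 1.11 TPM in NIL-*hfr131* and at 0.554 ± 0.121 TPM in 187R, and LOC_Os07g37920 was at 9.71 ± 1.42 TPM in NIL-*hfr131* and at 1.91 ± 0.509 TPM in 187R (SD, n = 3). On chromosome 4, LOC_Os04g09520 was at 11.7 ± 3.63 TPM in NIL-*hfr131* and at 2.69 ± 0.321 TPM in 187R, and LOC_Os04g47390 was at 12.6 ± 1.33 TPM in NIL-*hfr131* and at 3.79 ± 0.535 TPM in 187R. The ratios of the means in these 4 genes were 6.20, 5.09, 4.35 and 3.34. LOC_Os04g55660, described above, lay 770 locus numbers below the lower gene LOC_Os04g56430.

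Higher genes at 5 TPM or more in 187R made up the rest, apart from LOC_Os02g41510 at 6.39 ± 1.11 TPM in NIL-*hfr131* and at 2.12 ± 0.104 TPM in 187R. LOC_Os02g30200 was at 19.4 ± 1.49 TPM in NIL-*hfr131* and at 5.62 ± 0.970 TPM in 187R, LOC_Os03g46400 was at 30.5 ± 4.86 TPM in NIL-*hfr131* and at 10.9 ± 1.29 TPM in 187R, and LOC_Os11g18570 was at 25.1 ± 0.996 TPM in NIL-*hfr131* and at 10.4 ± 0.717 TPM in 187R (SD, n = 3). LOC_Os02g57120, LOC_Os05g30580 and LOC_Os12g44010 had the widest spread of this kind. LOC_Os02g57120 was at 16.2, 15.8 and 33.5 TPM in NIL-*hfr131* and at 7.22, 6.34 and 5.57 TPM in 187R, and LOC_Os12g44010 was at 33.1, 35.0 and 51.5 TPM in NIL-*hfr131* and at 15.2, 12.1 and 14.5 TPM in 187R. NIL-*hfr131* replicate 3 was the highest library in both. LOC_Os05g30580 went the other way, at 58.7, 43.8 and 31.9 TPM in NIL-*hfr131*, with replicate 3 the lowest, and at 8.66, 11.8 and 14.04 TPM in 187R.

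NIL-*hfr131* replicate 3 did not deviate in 1 direction across the 51 genes. Among the 44 higher genes it was the highest library of its line in 18 and the lowest in 21. In 39 of the 51 genes it was within 0.5 on the log2 scale of the mean of replicates 1 and 2. The median absolute deviation was 0.23, against 0.42 in the other genes, and the rule itself favours genes whose libraries lie close together. The largest deviation was 1.02, in LOC_Os02g57120. Without this library the rule gave 62 higher and 10 lower genes, and since dropping a library can only relax the rule, all 51 were among them.

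The limit of 2 times cuts through a continuous range. The 3 genes just inside it were LOC_Os08g31130, LOC_Os03g46400 and LOC_Os04g55660, with separations of 2.03, 2.04 and 2.05 times. Just outside it were LOC_Os06g21270, LOC_Os06g12500 and LOC_Os01g34920, each with a separation of 1.95 times, and all 6 were higher in NIL-*hfr131*. LOC_Os06g21270 was at 85.6, 117 and 164 TPM in NIL-*hfr131* and at 34.1, 41.7 and 43.4 TPM in 187R, which is a higher level than in most of the 51 genes. LOC_Os01g34920 was at 1.79, 2.04 and 3.19 TPM in NIL-*hfr131* and at 0.427, 0.404 and 0.433 TPM in 187R.

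Higher genes outnumbered lower ones under every setting tried, while the counts moved. A limit of 1.5 times, 0.1 added to TPM, same-numbered pairs and each left-out library relax the rule. The 44 higher and 7 lower genes therefore stay under these settings, which are no independent check of the excess. A limit of 1.5 times gave 108 higher and 39 lower genes, and a limit of 3 times gave 15 higher and 2 lower, the lower ones being LOC_Os01g15520 and LOC_Os08g32750. With 0.1 in place of 1 added to each TPM value, there were 109 higher and 45 lower genes. Median-of-ratios factors gave 40 higher genes, of which 38 were among the 44, and quantile normalization gave 35, all among the 44. Both gave 8 lower genes, including all 7. Neither scaling kept LOC_Os03g14654 among the line-separated genes, so the run on chromosome 3 then had fewer than 3 members. Among all genes with a mean of at least 1 TPM, differences without overlap were, in contrast, more often lower (9.94%) than higher (8.43%).

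**Figure D4:**
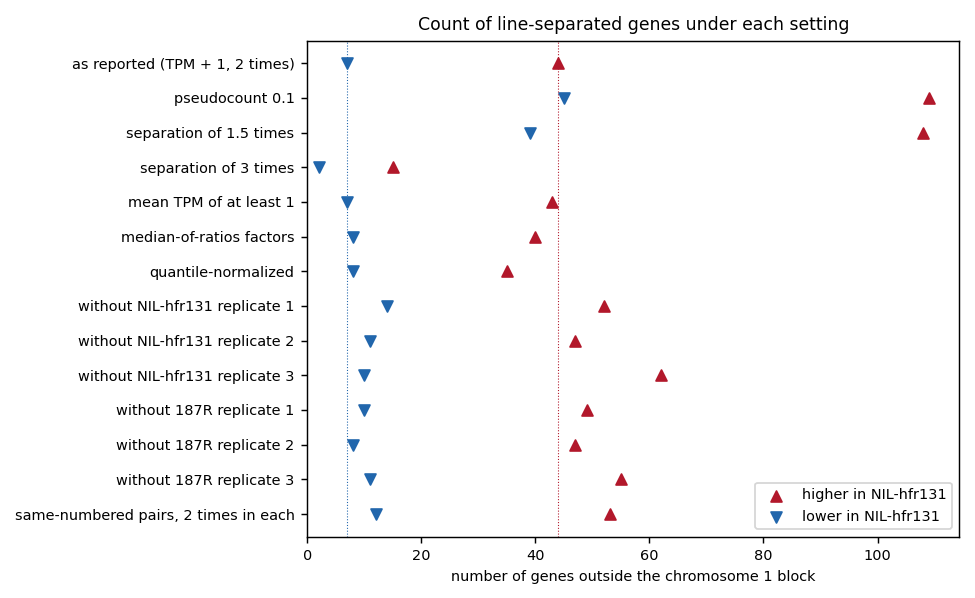
Number of line-separated genes outside the chromosome 1 block under each setting, with red triangles for genes higher in NIL-*hfr131* and blue triangles for lower genes, and dotted lines at the reported counts of 44 and 7. Higher genes outnumber lower ones in each row, and the counts move most with the limit and with the value added to TPM.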

How the data were processed

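Messenger RNA of young panicles was sequenced in 3 libraries of NIL-*hfr131* and 3 of 187R, and groups follow the genotype labels. The authors deposited TPM values for 42189 genes. The methods name an MGISEQ-2000 platform and FPKM, whereas the values in each library sum to 1000000 and were therefore read as TPM. The aligner, genome build and annotation are not given in the sources used here. TPM keeps no depth, so no counting interval was computed, and errors are those between replicate libraries.

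Line-separated genes were found on TPM + 1 with a limit of 2 times. A group is at least 3 of them on 1 chromosome, each within 1000 locus numbers of the next. Standard errors come from the pooled spread of log2(TPM + 1) within lines, except those printed beside a limma *P*, which come from the limma fit. Over all genes whose mean reached 1 TPM, limma 3.58.1 in R 4.3.3 compared the lines (line as the only term, trend = TRUE, two-sided, Benjamini-Hochberg adjustment, threshold 0.05). Its *P* values are printed only for genes that the rule did not choose, while its count of calls covers all genes tested. Other steps used Python 3.11.15.

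The genes, lists and limits were chosen with earlier results of these data known. The genes named are the members of groups, the 10 higher and all lower genes outside groups with the widest separation, the 3 genes on each side of the limit, and the remaining members, which were added after their values were seen. The alternatives were a pseudocount of 0.1 TPM, limits of 1.5 and 3 times, quantile normalization, median-of-ratios factors, a mean of at least 1 TPM, each library left out, same-numbered pairs, and group limits of 500 and 2500.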

Additional observations from a re-analysis of the deposited data

How the results depend on the processing

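The number of higher genes (44) moved to 109 with a pseudocount of 0.1, 108 with a limit of 1.5 times and 15 with a limit of 3 times. The number of lower genes (7) moved to 45, 39 and 2 under these 3 settings. With libraries left out 1 at a time, there were 47 to 62 higher and 8 to 14 lower genes, with 14 lower without NIL-*hfr131* replicate 1, 11 without NIL-*hfr131* replicate 2 and 11 without 187R replicate 3. The members in groups (9) moved to 40 with a pseudocount of 0.1, 37 with a limit of 1.5 times, 0 with a limit of 3 times, 21 within 2500 locus numbers and 23 when 2 members made a group, the last a choice made after seeing the data. They were 9 to 18 when each library was left out, with 18 without NIL-*hfr131* replicate 1.

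The genes called by limma (66) ranged from 13 to 379 when each library was left out, with 379 without NIL-*hfr131* replicate 3 and 28 or fewer without any 1 of the others. With the replicate number as a block, 16 were called. When same-numbered libraries were paired and a gene had to differ by 2 times in all 3 pairs, 53 were higher, 12 were lower and 12 lay in groups. The labels give no shared origin for equal numbers, and the correlations of same-numbered libraries' deviations from their line means were -0.21, 0.060 and 0.090. Those of differently numbered libraries were -0.23 to 0.32, so libraries of equal number were not more alike by this measure. With 3 libraries per line, it cannot show whether equal numbers share a batch.

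The direction of all 51 differences was the same under each scaling, pseudocount and left-out library. For the pseudocount and the left-out libraries the rule fixes this in advance, since the lines do not overlap in any of the 51. Median-of-ratios factors of 0.953 to 1.11 are also too close to 1 to undo a separation of 2 times. The unchanged direction is therefore no independent check. With a pseudocount of 0.1 the size of 29 differences moved by more than 1 SD, as in LOC_Os08g32720 (log2 difference 4.67, against 1.79 with 1 TPM added). With quantile normalization that of 3 did. Other settings left the counts within 1.5 times. The depth behind genes near 0 is unknown, and the causes of these shifts were not tested.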

Other observations

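Some genes outside the block had a large mean difference but were not line-separated, in most of them because 1 or 2 libraries stood apart from the others of their line. LOC_Os09g13575 was at 233, 0.920 and 1.48 TPM in NIL-*hfr131* and at 191, 271 and 268 TPM in 187R. LOC_Os05g03865 was at 383, 280 and 0.442 TPM in NIL-*hfr131* and at 253, 323 and 313 TPM in 187R. LOC_Os09g24260 was at 1.47, 1.94 and 116 TPM in NIL-*hfr131* and at 1.39, 0.883 and 1.75 TPM in 187R. NIL-*hfr131* replicate 1 stood apart in the first of these genes, and replicate 3 in the others. LOC_Os06g29810 varied within 187R instead, at 1.19, 0.0310 and 8.35 TPM, and was at 9.95, 8.91 and 17.8 TPM in NIL-*hfr131*. In all, 5 genes with a mean of at least 1 TPM outside the block had a mean difference of at least 2 on the log2 scale and were not line-separated. LOC_Os08g32710, described above, is the fifth. Its lines did not overlap, and it missed the limit with a separation of 1.93 times.

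Of the 51 line-separated genes, 4 (7.84%) had a locus number that does not end in 0, against 6.99% of the other genes with a mean of at least 1 TPM.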
